A study of Homo sapiens with 8 samples.

Results

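The 77 genes described here encode the proteins of the cytosolic ribosome. They were taken from the deposited gene table as the protein-coding rows whose symbol is RPL, RPS, RPLP or RPSA with the usual number and an optional A or X, and they are 77 of 38637 listed genes and of 19439 listed protein-coding genes. The set holds 46 genes of the large subunit and 31 of the small subunit. It leaves out FAU, which encodes a ribosomal protein fused to a ubiquitin-like protein, and RACK1, a scaffold protein of the small subunit. RNA-seq was performed in SW1990, an established human pancreatic adenocarcinoma cell line, in 4 groups of 2 libraries. Vector cells carried the empty vector and EBF2-OE cells overexpressed EBF2, a transcription factor. Vehicle cells were mock treated, and GSK-LSD1 cells received GSK-LSD1, an inhibitor of the histone demethylase LSD1 (KDM1A), at a dose that the labels give as 2000 µM. All libraries came from poly(A)-selected RNA, and the labels do not say whether the libraries of a group are separate cultures. The p-values therefore measure only the spread between these libraries, which may be technical.

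Ribosomal proteins assemble with ribosomal RNA in the nucleolus into a large and a small subunit, and surplus protein that finds no partner is degraded. Their mRNAs are among the most abundant of a growing cell. Most of them start with a 5' terminal oligopyrimidine (TOP) tract, a C followed by a run of pyrimidines, through which mTOR signaling and LARP1 control their translation and stability. Many of the genes also carry small nucleolar RNAs (snoRNAs) in their introns, and nearly all have left processed pseudogenes elsewhere in the genome.

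The TOP tract was searched in the RefSeq promoter table (GRCh38.p14), which holds 62 of the 77 members. The search used the sense strand only and asked for a C and 4 or more pyrimidines (C or T) that start within 5 bases of an annotated start. It found the tract in 53 of the 62 members (85.5%) and in 25.1% of the 27243 other genes of the table. With the tract exactly at the start the shares were 74.2% and 4.98%. The windows below are those of some members with large changes, of RPL39 with its long tract and of RPS15. In RPS15 no tract began within 5 bases of the start, although a pyrimidine run lies further downstream in the window printed. RPS2 is not among the 62 members, and RPL22, which also changed, is not shown. Each window runs from 10 bases before the start to 20 bases from it, and capitals mark the tract.
RPL13: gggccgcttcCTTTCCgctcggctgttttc
RPL13A: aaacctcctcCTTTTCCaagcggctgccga
RPL3: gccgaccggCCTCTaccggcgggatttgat
RPL36: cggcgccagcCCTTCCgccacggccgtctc
RPL35: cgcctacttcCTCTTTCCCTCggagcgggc
RPL39: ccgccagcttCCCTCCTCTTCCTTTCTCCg
RPS15: aggcgcggaccaaagcgatctcttctgagg
The table lists other starts of RPL13, and the window with the tract is shown. The windows lie at chr16:89560672-89560701 (plus strand) for RPL13, chr19:49487598-49487627 (plus) for RPL13A, chr22:39319604-39319633 (minus) for RPL3 and chr19:5690285-5690314 (plus) for RPL36. Those of RPL35, RPL39 and RPS15 lie at chr9:124861938-124861967 (minus), chrX:119791611-119791640 (minus) and chr19:1438386-1438415 (plus). The tract was 6 bases long in RPL13 and RPL36, 7 in RPL13A, 5 in RPL3, 11 in RPL35 and 19 in RPL39. Mitochondrial ribosomal proteins, which work on a separate ribosome, held the tract at the start in 6 of 69 genes (8.70%), and ribosome biogenesis factors in 9 of 59 (15.3%).

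The libraries held 20453362 to 27054876 counts on genes, and each member had 2778 to 89611 counts in each library. All 77 members passed the filter on low counts in every comparison. Of 8 ductal or epithelial marker genes, 5 had a mean of at least 1 TPM (a level per length, scaled to a common total), with a summed level of 4642 to 7275 TPM. The markers KRT8, KRT18 and KRT7 were at 2645, 2281 and 715 TPM, while KRT19, EPCAM and CDH1 were under 1 TPM. Of 4 fibroblast markers 2 reached 1 TPM (summed 38.0 to 56.3, with COL1A1 at 35.8), as did 1 of 3 leukocyte markers (summed 11.0 to 30.9, with CD68 at 19.8) and 1 of 3 endothelial markers (summed 0.503 to 5.02, CDH5 at 1.84). Their part in the results was not tested. The acinar markers PRSS1 and CELA3A, the endocrine markers INS and GCG and the leukocyte marker CD3E were listed at 0 in every library. EBF2 was at 1.32 and 1.20 CPM (TMM-normalized counts, per library of equal size) in Vector, 289 and 4028 in EBF2-OE, 1.20 and 0.868 in Vehicle and 1.74 and 1.05 in GSK-LSD1. The EBF2-OE libraries were thus both above the others but far apart from each other.

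Ribosomal protein genes took a larger share of the counts in the Vehicle and GSK-LSD1 libraries than in Vector. The share was 6.25% and 6.10% in Vector 2 and 3, 6.54% and 5.97% in EBF2-OE 2 and 3, 7.12% and 7.18% in Vehicle 1 and 2, and 6.79% and 6.64% in GSK-LSD1 1 and 2. EBF2-OE spanned both Vector libraries, whereas the GSK-LSD1 libraries both lay below Vehicle and above Vector. The group means were 6.17 ± 0.103, 6.25 ± 0.403, 7.15 ± 0.0436 and 6.71 ± 0.108 (SD, n = 2 each). An exact permutation test of 1 group of 2 libraries against another cannot reach 0.05, so these differences are given as descriptions. The ratio of large to small subunit counts stayed between 1.59 and 1.62 in all libraries. The 30 pseudogenes listed under ribosomal protein names held 0.0953% to 0.110% of the members' counts. GENCODE v44 lists 1588 for the members, so this share leaves most of them out.

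By the deposited TPM, the highest mean levels over all libraries were those of RPS2 (7258 TPM), RPL35 (7145), RPL7A (6991), RPS18 (5799) and RPL12 (5678). The lowest were RPS29 (52.3), RPL28 (223), RPL14 (339), RPL37 (376) and RPL15 (388). The highest and lowest were 139-fold apart. This order depends on the length by which the counts were divided. RPS29 is listed with 7472 bases, while its GENCODE v44 canonical transcript has 295, and with that length its mean level was 1284 TPM. With canonical lengths for the members the span shrank to 24.6-fold, and RPS2 and RPL35 were still the highest 2. The listed length equals the canonical one for 40 members and is over 2 times as long for 9.

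Overexpression of EBF2 was compared with empty vector to ask which genes respond to EBF2. No member was called in EBF2-OE against Vector. The median log2 fold change of the members was 0.05, against 0.00 over all 15560 genes tested, and it ranged from -0.07 (RPL8) to 0.13 (RPS13). The log2 fold change was above 0 in 66 of the 77 members. By edgeR's quasi-likelihood test 0 members had an adjusted p under 0.05, where the share of all genes was 0.0%, and 0 had an unadjusted p under 0.05, where it was 1.34%. DESeq2 called 0 members as well and 0.0275% of all genes. The standard errors of the members had a median of 0.11 on the log2 scale, so that changes of this size were not detectable with these libraries. EBF2 itself, at a log2 fold change of 10.7, was not called by edgeR either. The lowest adjusted p of any gene by that test was 0.208. The absence of called members therefore says little about their response.

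The direction of the members turned when EBF2-OE 2 was left out. RPS13, a small subunit protein and the member with the highest estimate, was at 394 and 414 CPM in Vector and 458 and 419 in EBF2-OE, and its log2 fold change was 0.13 ± 0.11 (SE, adjusted p = 1 by edgeR). Both its EBF2-OE libraries were above both Vector libraries, as in 1719 of all 15560 genes tested, but EBF2-OE 3 was close to Vector 3. RPS2, the member with the highest level by TPM, was at 2479 and 2502 CPM in Vector and 2531 and 2367 in EBF2-OE, and RPL7A had a log2 fold change of 0.10. Without EBF2-OE 2 the median of the members was -0.03, and without EBF2-OE 3, the library with the higher EBF2 level, it was 0.11. MYC, a transcription factor known to drive ribosome production, was at 422 and 191 CPM in Vector 2 and 3 and 381 and 199 in EBF2-OE 2 and 3. It separated the libraries by number and not by group.

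**Figure D1:**
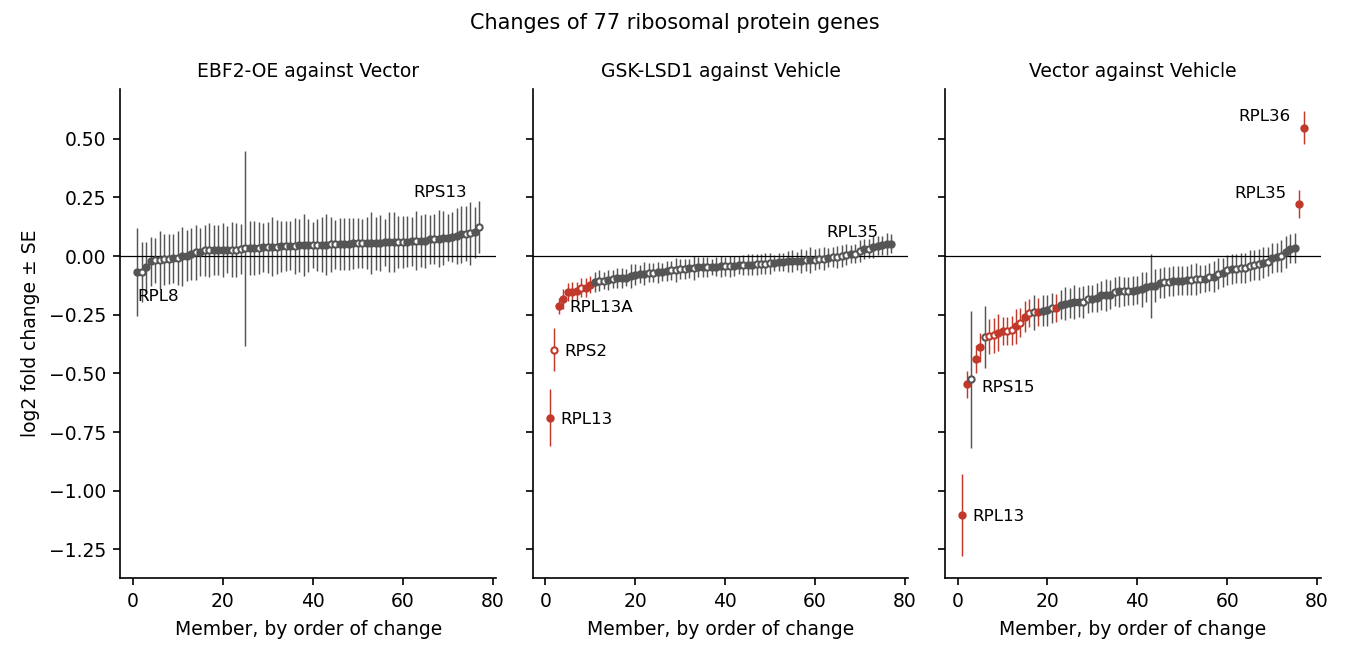
Log2 fold change ± SE (y axis) of the 77 members in order of change (x axis) in each comparison. Filled points are large subunit genes, open points small subunit genes, and red marks an adjusted p under 0.05 at any fold by edgeR. No member is red in EBF2-OE against Vector, 10 are red and lower in GSK-LSD1 against Vehicle, and 16 lower and 2 higher are red in Vector against Vehicle.

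GSK-LSD1 treatment was compared with Vehicle to ask which genes respond when LSD1 is inhibited. RPL13, RPS2 and RPL13A had the lowest estimates, and 10 members were called lower and 0 higher at an adjusted p under 0.05 at any fold. Over all 16059 genes tested the shares at any fold were 8.87% lower and 9.86% higher, so 10 of 77 lower was near that background and 0 higher was under it. With a fold above 1.5 as well, 1 member (RPL13) was called lower and 0 higher, against 2.04% and 2.53% of all genes. The median of the members was -0.04 and that of all genes -0.01, and 66 members had a log2 fold change below 0. With the summed counts of the members as the library total, the median of the members was 0.04. This scaling by construction centres the members near 0 and shifts all genes alike. Under it the log2 fold changes of 59 members were above 0, and RPL35 and RPLP1 were called higher. The share of all genes called under it is not given, so these calls are no result about the members.

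RPL13, a large subunit protein, lies at chr16:89560657-89566829 on the plus strand of hg38. It was at 2096 and 1447 CPM in Vehicle 1 and 2, 1120 and 1082 in GSK-LSD1, 851 and 803 in Vector and 825 and 812 in EBF2-OE. Both GSK-LSD1 libraries were below both Vehicle libraries, as in 4774 of all 16059 genes tested. The Vehicle libraries were themselves wide apart. The log2 fold change against Vehicle was -0.69 ± 0.12 (SE, adjusted p = 0.00338). Without Vehicle 1 it was -0.40 and without Vehicle 2 -0.93, and DESeq2 gave an adjusted p of 0.0698.

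RPS2, a small subunit protein at chr16:1962058-1964826 on the minus strand, was at 3590 and 2720 CPM in Vehicle 1 and 2 and at 2433 and 2365 in GSK-LSD1. Vehicle 1 was again the higher library. Both GSK-LSD1 libraries were below both Vehicle libraries, as in 4774 of all 16059 genes tested. The log2 fold change was -0.40 ± 0.09 (SE, adjusted p = 0.0133 by edgeR and 0.215 by DESeq2). Without Vehicle 1 it was -0.18. RPL13 and RPS2 were the 2 members that differed by over 0.3 on the log2 scale between the Vehicle libraries, and none did between the GSK-LSD1 libraries. Without RPL13 and RPS2 the share of counts was 6.55% and 6.76% in Vehicle and 6.43% and 6.29% in GSK-LSD1.

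RPL13A was the member whose call held most often. It encodes a large subunit protein that can leave the ribosome to silence inflammatory mRNAs, and it lies at chr19:49487608-49492308. Its level was 2324 and 2374 CPM in Vehicle and 2028 and 2037 in GSK-LSD1, so that the spread within each group was small beside the gap. The log2 fold change was -0.21 ± 0.03 (SE, adjusted p = 0.00203). It stayed between -0.23 and -0.20 when any library was left out, and it was called in every alternative but the fit over all 8 libraries, where its adjusted p was 0.367 and no member was called.

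The other members called lower were RPL5 (log2 fold change -0.18), RPL3 (-0.15), RPL28 (-0.15), RPL4 (-0.15), RPSA (-0.14), RPL7 (-0.13) and RPL12 (-0.12). RPL5 and RPL11 form with 5S RNA the particle that binds MDM2, and RPL11 had a log2 fold change of -0.05 with an adjusted p of 0.416. RPSA, also known as the laminin receptor precursor, was at 1315 and 1366 CPM in Vehicle and 1242 and 1205 in GSK-LSD1. RPL3 lies near the peptidyl transferase center and was at 2135 and 2187 CPM in Vehicle and 1989 and 1905 in GSK-LSD1. The fitted levels of these 7 members were 0.881 to 0.918 times those in Vehicle.

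A listed snoRNA lies within the span of 29 members. Of these, 9 were among the 10 called lower under GSK-LSD1, namely all but RPL7, and of the 48 members without a listed snoRNA 1 was called lower, against 8.87% of all genes. The medians of both sets were -0.07 and -0.04. In Vector against Vehicle 9 of the 29 and 7 of the 48 were called lower, against 13.2% of all genes, and 2 of the 48 higher. The difference between the sets was not tested. RPL13A spans SNORD32A, SNORD33, SNORD34 and SNORD35A, and the snoRNA in RPL28 lies on the opposite strand.

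The largest positive estimates were RPL35 (0.05), RPL24 (0.05) and RPLP1 (0.05), none of which passed the test. RPLP1 belongs with RPLP0 and RPLP2 to the stalk of the large subunit, which recruits translation factors. RPLP0 was at 2124 and 2178 CPM in Vehicle and 2057 and 1986 in GSK-LSD1, and RPLP2 at 540 and 542 against 503 and 507. Their log2 fold changes were -0.09 and -0.10, with adjusted p values of 0.102 and 0.126. RPS6, the target of the S6 kinases, had -0.07 (adjusted p = 0.268), and RPS4X and RPL10, which are X-linked, had -0.01 and -0.07.

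The effects of EBF2-OE and GSK-LSD1 were compared in 1 fit over all 8 libraries. No member differed at an adjusted p under 0.05, where the share of all genes was 0.0%. At an unadjusted p under 0.05 only RPL13 did, against 7.66% of all genes. Its difference of log2 fold changes was 0.67 ± 0.21 (SE, adjusted p = 0.492), with the GSK-LSD1 effect the lower. Without a filter on low counts the adjusted p for RPL13 was 0.000127. A call in 1 treatment and not in the other thus does not show that the treatments differ.

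Vector was compared with Vehicle as the background difference between the controls of both experiments. In Vector against Vehicle, 16 members were called lower and 2 higher at any fold, against 13.2% and 13.6% of all 16019 genes tested. With a fold above 1.5, 1 member was called lower (RPL13) and 0 higher, against 10.2% and 5.79%. The median of the members was -0.15 and that of all genes 0.00, and 72 members had a log2 fold change below 0. The scaling by the members' own total again centres them by construction. It moved the median of all genes to 0.19 and that of the members to 0.04, and 4 members were called higher and 3 lower. The share of all genes called under this scaling is not given, so these counts are no result about the members. The vector and the vehicle cannot be told apart from any difference in when or how the experiments were run. The number of members called depended on single libraries, whereas the medians without Vehicle 1 and without Vehicle 2 stayed at -0.15 and -0.14.

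RPL13 had a log2 fold change of -1.10 ± 0.17 (SE, adjusted p = 0.0139) in Vector against Vehicle. RPL13A was at 1604 and 1619 CPM in Vector against 2324 and 2374 in Vehicle, a change of -0.55 ± 0.06 (adjusted p = 0.00818). RPL3 was at 1575 and 1621 CPM against 2135 and 2187 (-0.44), and RPL22, a large subunit protein that also binds viral RNA, at 370 and 367 against 482 and 482 (-0.39). Each of these genes had both Vector libraries below both Vehicle libraries, as did 5614 of all 16019 genes tested. Without Vehicle 1 the adjusted p was 0.0679 for RPL13 and 0.0934 for RPL13A. The same Vehicle libraries served in the GSK-LSD1 comparison, so the values of RPL13, RPL13A and RPL3 in both are not independent. RPS29 (-0.34), RPS28 (-0.34), RPLP2 (-0.33), RPL4 (-0.32), RPS3 (-0.32), RPS27 (-0.32) and RPL5 (-0.30) were also called lower, and RPL7A, RPS18, RPL29 and RPL7 were among the remaining ones. RPS29 shares its span with RN7SL1, an abundant noncoding RNA on the opposite strand.

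RPL36 and RPL35 went the other way. RPL36, a large subunit protein at chr19:5690295-5691875, was at 434 and 468 CPM in Vector, 441 and 426 in EBF2-OE, 313 and 303 in Vehicle and 322 and 313 in GSK-LSD1. The libraries fell into 2 levels, Vector with EBF2-OE and Vehicle with GSK-LSD1. The log2 fold change of Vector against Vehicle was 0.55 ± 0.07 (SE, adjusted p = 0.00993), and it was called higher in every alternative that kept all libraries. Without Vehicle 1 or Vehicle 2 the adjusted p was 0.117 and 0.112. RPL36 overlaps LONP1, a mitochondrial protease gene, on the opposite strand. RPL35 was at 1315 and 1310 CPM in Vector and 1132 and 1112 in Vehicle, with a change of 0.22 ± 0.06 (adjusted p = 0.0458, and 0.0941 by DESeq2).

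RPS15 and RPL8 stood apart from the other members by their spread. RPS15, a small subunit protein near the decoding site, was at 546 and 286 CPM in Vector 2 and 3, 278 and 569 in EBF2-OE 2 and 3, 613 and 584 in Vehicle and 596 and 588 in GSK-LSD1. RPL8 was at 1991 and 1514 CPM in Vector, 1460 and 1871 in EBF2-OE, 1922 and 1900 in Vehicle and 1886 and 1869 in GSK-LSD1. Both genes were high in Vector 2 and EBF2-OE 3 and low in Vector 3 and EBF2-OE 2, which neither group nor replicate number follows. The log2 fold change of RPS15 in Vector against Vehicle was -0.53 ± 0.29 (SE, adjusted p = 0.22). It was -1.07 without Vector 2 and -0.12 without Vector 3.

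The split moved with base composition. The GC content of the canonical transcript was 61.3% for RPS15 and 63.6% for RPL8, the highest of the members, whose median was 47.6%. The log2 difference of Vector 2 and EBF2-OE 3 against Vector 3 and EBF2-OE 2 was 0.98 for RPS15, 0.38 for RPL8 and 0.18 for RPLP2 (GC 57.4%), with a median of -0.10 over the members. RPL36, at 61.0% GC, had -0.08. Spearman's rho of this difference and GC was 0.52 over the 77 members and 0.42 over 14966 genes, as a description of 4 libraries whose pairing was read from the data. Other genes with at least the GC of RPS15 had a median of 0.24 (1965 genes) and those below it -0.04. In Vector against Vehicle rho of GC and log2 fold change was -0.32 over 14592 genes and 0.01 over the members. The part of base composition in these values was not tested.

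Other genes of protein synthesis were counted from lists. A list of 35 other genes known for a TOP tract, among them the noncoding snoRNA hosts GAS5 and SNHG1, had 26 genes in the promoter table, of which 22 held the tract by the search above. Of the 35, 11 were called lower and 2 higher in GSK-LSD1 against Vehicle at any fold (median -0.10), against 8.87% and 9.86% of all genes. Between the controls 12 were called lower and 2 higher (median -0.15), against 13.2% and 13.6%. In the former PABPC1, the poly(A)-binding protein, had a log2 fold change of -0.37, EEF2, the elongation factor for translocation, -0.23, RACK1 -0.13 and the snoRNA host GAS5 -0.53. The lowest was EIF3F at -0.62, and the highest EIF3K at 0.19. EIF3F was at 326 and 243 CPM in Vehicle 1 and 2 and 181 and 191 in GSK-LSD1, with Vehicle 1 the highest as for RPL13. EEF1A1, an elongation factor, was at 7034 and 7292 CPM in Vehicle against 5301 and 5694 in Vector (-0.39). TPT1 had -0.28 in that comparison, and FAU, outside the members by its name only, had 0.20 and was not called.

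Ribosome biogenesis factors, most of which process and assemble the subunits, had the opposite sign to the members between the controls. Their list also holds genes of RNA polymerase I, such as POLR1A. Of 70, 51 were called higher and 0 lower in Vector against Vehicle at any fold, with a median of 0.46, from UTP20 (0.92) to IMP3 (-0.40), against 13.6% and 13.2% of all genes. In GSK-LSD1 against Vehicle 1 was called higher (EMG1, 0.25) and 5 lower (NLE1 lowest, -0.37), against 9.86% and 8.87% of all genes, and in EBF2-OE against Vector none was called and the median was -0.07. Without Vehicle 1 and without Vehicle 2 the medians of the 70 in the control comparison stayed at 0.44 and 0.47. Calls from those fits, which keep 1 Vehicle library, are left out here. A list of TOR signaling, LARP1 and other regulators, among them MYC, MAX, MDM2 and CNBP, had 30 tested genes. Of these, 11 were called higher and 1 lower in Vector against Vehicle (median 0.21), against 13.6% and 13.2% of all genes. LARP1, which binds the TOP tract, had 0.43 (adjusted p = 0.0274) in that comparison. The highest was RPTOR, a subunit of mTORC1, at 1.08, and the lowest SESN3, a stress-induced inhibitor of mTORC1, at -0.82. MYC was not called there (-0.56, adjusted p = 0.273).

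Of 78 mitochondrial ribosomal proteins, 10 were called higher and 4 lower in GSK-LSD1 against Vehicle (median 0.07), against 9.86% and 8.87% of all genes. Between the controls 20 were called higher and 4 lower (median 0.17), against 13.6% and 13.2%. Among the paralogs of the members, RPS27L, a p53 target, was at 48.5 and 46.9 CPM in Vehicle and 71.3 and 69.1 in GSK-LSD1, a log2 fold change of 0.56 (adjusted p = 0.000192). RPL26L1 (0.73) and RPL7L1 (0.52) were called higher in Vector against Vehicle. RPL22L1 was not called in any comparison, and its log2 fold changes were -0.20, -0.21 and 0.32 in EBF2-OE, GSK-LSD1 and the controls.

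Members were compared with other short genes, since their median listed length was 1127 bases against 2293 over all genes. In Vector against Vehicle the 1003 other genes under 1000 bases had a median of -0.17, the 3652 of the next length class, which starts at 1000 bases and holds the members' median length, -0.11, and those of 5000 bases or more 0.08. There rho of length and log2 fold change was 0.15 over all genes tested and -0.08 over the members. In GSK-LSD1 against Vehicle and EBF2-OE against Vector other genes under 1000 bases had medians of 0.03 and 0.03. The part of length in the control comparison was not tested. A listed protein-coding gene overlaps 17 members, 14 on the opposite strand and 3 on the same strand as read-through genes (RPL17-C18orf32, RPL36A-HNRNPH2 and RPS10-NUDT3), and GENCODE v44 lists 1588 pseudogenes of the members. How reads that match several places were counted is not given in the sources used here, so the counts of these members are uncertain.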

How the data were processed

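Poly(A) RNA of 8 SW1990 libraries was read from both ends. HISAT2 (alignment to hg38) and HTSeq (counting per gene) were the tools of the authors. The strand setting and the annotation are not given in the sources used here. The deposited table holds raw counts per gene, a listed length, coordinates and TPM, which the authors computed from count and length (checked by recomputing it). The quasi-likelihood test of edgeR 4.0.16 (R 4.3.3) was applied to the counts with TMM normalization and filterByExpr at a minimum count of 10, two-sided, with Benjamini-Hochberg adjustment over all genes tested. Each comparison used its own 4 libraries. Members were called at an adjusted p under 0.05, with and without a fold above 1.5. Standard errors come from the test statistic, and CPM uses TMM factors over all 8 libraries. Log2 differences between libraries used CPM with a pseudocount of 0.5. Alternatives included DESeq2 1.42.0. The tests were tried on simulated counts. GC, canonical lengths and pseudogenes come from GENCODE v44, and all 77 members matched.

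In each comparison the named genes are the 6 highest and 6 lowest members, members called with a fold above 1.5 (up to 10), a fixed set of stalk, 5S particle and overlapping members, the 5 highest and 5 lowest by TPM, and listed genes outside. Other members called at any fold were named after their values were seen. The members and lists were chosen with earlier results of these data known. Some items are not reported here. Totals per library were 20453362 to 27054876.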

Additional observations from a re-analysis of the deposited data

How the results depend on the processing

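With 2 libraries a group, each call rests on few libraries. Small changes were hardest to detect in EBF2-OE against Vector, where the members' median SE was 0.11 on the log2 scale. It was 0.04 in GSK-LSD1 against Vehicle and 0.06 in Vector against Vehicle. The count over all genes is given here for the unadjusted p only. By edgeR, 2577 of all 16059 genes were lower at an unadjusted p under 0.05 in GSK-LSD1 against Vehicle. In Vector against Vehicle 3441 of all 16019 genes were. The other counts show only how the calls depend on the processing. In EBF2-OE against Vector no alternative called a member, and the median without a library ranged from -0.03 to 0.11. In GSK-LSD1 against Vehicle the 10 members called lower at any fold became 5 by DESeq2, 0 in the fit over all 8 libraries, 3 (with 2 higher) with the members as the total, 16 at an unadjusted p and 1 to 7 without a library. The 1 called with a fold above 1.5 became 0 by DESeq2 and over all 8 libraries, and 0 to 2 without a library. The median was 0.042 with the members as the total. With the replicate number as a block (replicate block) 4 were called lower at any fold and, in EBF2-OE against Vector, 0. The labels do not say what the numbers stand for. The correlation of deviations of same-numbered libraries was 0.35 over all genes and -0.79 over the members in EBF2-OE and Vector, and -0.01 and -0.03 in GSK-LSD1 and Vehicle, with only 2 pairs each. The -0.79 does not describe the members as a set. RPS15 lay farthest out in both groups, at -0.93 in Vector and 1.03 in EBF2-OE (log2, library 3 minus 2). RPL8 had -0.40 and 0.36, while RPS25 had -0.04 and -0.31, both in 1 direction. The correlation without RPS15 and RPL8 was not computed. No paired analysis was possible for Vector against Vehicle because the groups share 1 number.

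In Vector against Vehicle the 2 members called higher at any fold became 1 by DESeq2, with DESeq2's size factors, with at least 10 counts in every library and over all 8 libraries, 4 with the members as the total, and 0 to 2 without a library. The 16 called lower became 3 with the members as the total, 33 at an unadjusted p and 0 to 45 without a library. With a fold above 1.5, 1 was called higher with the members as the total, and 0 to 1 higher and 0 to 2 lower without a library. The median was 0.0402 with the members as the total. The difference of the effects called 1 member without a filter. The log2 ratio of the share of counts was -0.21 for Vector against Vehicle and became -0.23 of protein-coding counts, -0.24 over members overlapping no protein-coding gene and -0.19 without RPL13 and RPS2. For GSK-LSD1 it went from -0.09 to -0.0647 without RPL13 and RPS2. The TPM span went from 139 to 24.6 with canonical lengths. The alternatives without RPL13 and RPS2 and with canonical lengths were chosen after seeing the data. The cause of these changes was not tested, beyond the fewer libraries of the fits that leave one out.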
